A study of Mus musculus with 153 samples.

Results

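Integrins and laminins hold the cells of skin to the matrix around them. The genes described here are those whose symbol begins with Itga, Itgb, Lama, Lamb or Lamc followed by a number, letter or x, read from array probe sets annotated with 1 gene symbol. The rule found 40 of the 18810 genes measured: 27 integrin subunits (18 alpha and 9 beta), 10 laminin chains and 3 genes whose symbols match but which encode no subunit. These 3 are Itgb1bp1, a protein that binds the tail of the beta-1 subunit, Itgb1bp2 (melusin), a muscle protein that binds the same tail, and Itgbl1, a secreted protein with repeats like those of beta subunits. Probe sets with several symbols (4 that match) were left out. All 40 passed the lower quartile of the deposited values (3.12), and the means of 9 lay under their median of 4.81: Itga10, Itgad, Itgae, Itgal, Itgax, Itgb1bp2, Itgb2l, Itgb7 and Lama1.

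Expression was measured by array in untreated tail skin snap frozen at 8 weeks of age, with 1 array per mouse. Mus spretus males had been crossed with Hras-/- FVB/N females, and their F1 daughters were backcrossed to FVB/N males that were Hras-/- or -/+, so the mice also differ from each other in the spretus alleles they inherited across the genome. The groups are WT mice, labelled Hras +/+ (40, 36 and 38 mice on plates 1, 2 and 3), and HET mice, labelled +/- (37 mice), and 81 mice were male and 70 female. Hras encodes a small GTPase of growth factor signalling. As the cross is described, the Hras + allele of the F1 mothers came from spretus. A WT mouse therefore carries the spretus allele at Hras, while a HET mouse may carry spretus or FVB/N there. Genotype and spretus alleles linked to Hras cannot be fully told apart in these groups. Arrays came from 3 plates of 49, 46 and 56 mice with 9, 10 and 18 HET mice. Array medians lay between 4.67 and 4.89, and the number of mice limits the precision. The labels mark 2 further arrays as outliers, both of WT males on plate 2, and these were left out. Defining transcripts of skin were high in every mouse: the basal keratin Krt5 lay between 11.6 and 12.2 (log2), the suprabasal keratin Krt10 between 12 and 12.4 and the dermal collagen gene Col1a1 between 10.3 and 12.1.

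An integrin is a dimer of 1 alpha and 1 beta subunit that spans the cell membrane and binds matrix outside and the cytoskeleton inside. A laminin is a trimer of an alpha, a beta and a gamma chain and is the main adhesive protein of basement membranes. In epidermis the Itga6 and Itgb4 subunits form the hemidesmosome receptor, which binds a laminin that holds the Lama3 and Lamb3 chains, while vessels, muscle and nerve carry laminins with Lama2, Lama4 or Lama5 chains. In whole skin, fewer cells of a type and less RNA per cell cannot be told apart.

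The genes differed in how much they varied between mice. After plate, sex and genotype were fitted, the standard deviation (SD) of the members ran from 0.115 for Itgav, the alpha-V subunit of vitronectin and fibronectin receptors, to 0.438 for Itgbl1, on the log2 scale. Their median was 0.259, against 0.223 for all genes, and 27 of 40 lay above the median of all genes. Itgav was among the least variable genes on the array, with 2.70% of genes below it, and Itgbl1 among the most variable, with 95% below it. The laminin chains ran from 0.189 (Lama5) to 0.298 (Lama2). The leukocyte integrins ran from 0.204 (Itgb2l) to 0.368 (Itgb2), and the other integrin subunits from 0.115 to 0.40 (Itga11).

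The first comparison asked whether any of these genes differs between HET and WT skin, and none was called. By limma, with sex and plate in the model and a Benjamini-Hochberg adjustment over all 18810 genes, 21 genes (0.112%) passed an adjusted p of 0.05 and 0 of the 40 members did, with 2 members and 1235 genes (6.57%) at an unadjusted p under 0.05. The median member difference was -0.01 (HET minus WT, log2) against 0.00 (-5.9e-05) for all genes, and 18 of 40 members were above 0 (49.9% of all genes). Among the laminin chains 7 of 10 lay above 0, with differences from -0.02 (Lamb1) to 0.06 (Lamb3). Among the other integrin subunits it was 7 of 18, from -0.15 (Itga11) to 0.07 (Itga10).

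The 5 smallest p-values belonged to Itgax, Itga11, Itga8, Itgbl1 and Itgb4. Itgax encodes CD11c, a subunit of dendritic cells and macrophages. It had its lowest, median and highest level at 3.8, 4.68 and 5.58 in WT and at 3.91, 4.5 and 5.07 in HET mice, so the HET range lay inside the WT range. Its difference was -0.14 ± 0.06 (SE, limma adjusted p = 0.70), with -0.14, -0.21 and -0.09 on plates 1, 2 and 3. Itga11, a collagen receptor subunit of fibroblasts, ran over 4.29, 5.29 and 6.47 in WT and over 4.17, 5.05 and 5.99 in HET mice. Its difference of -0.15 ± 0.08 (SE, limma adjusted p = 0.76) was -0.14, -0.0003 and -0.26 within the plates. Itga8, a nephronectin receptor subunit, differed by -0.10, Itgbl1 by -0.13 and Itgb4 by 0.05. For Itgbl1 the plates went both ways (0.09, 0.14 and -0.45).

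Hras lies on chromosome 7, as do 4 leukocyte integrin genes. In the order of measured genes, Itgad, Itgax, Itgam and Itgal lie before Hras with 132, 133, 134 and 164 genes in between. Beside Itgax, none of them had an unadjusted p under 0.05: Itgad differed by -0.03, Itgam, the CD11b subunit of myeloid cells, by -0.003 and Itgal, the CD11a subunit of lymphocytes, by 0.01. Itgam ranged from 4.63 to 6.66 in WT (median 5.28) and from 4.72 to 5.87 in HET mice (median 5.32). The levels of these 4 genes overlapped widely between genotypes. On this chromosome the Hras genotype and spretus alleles linked to Hras cannot be fully told apart.

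**Figure D1:**
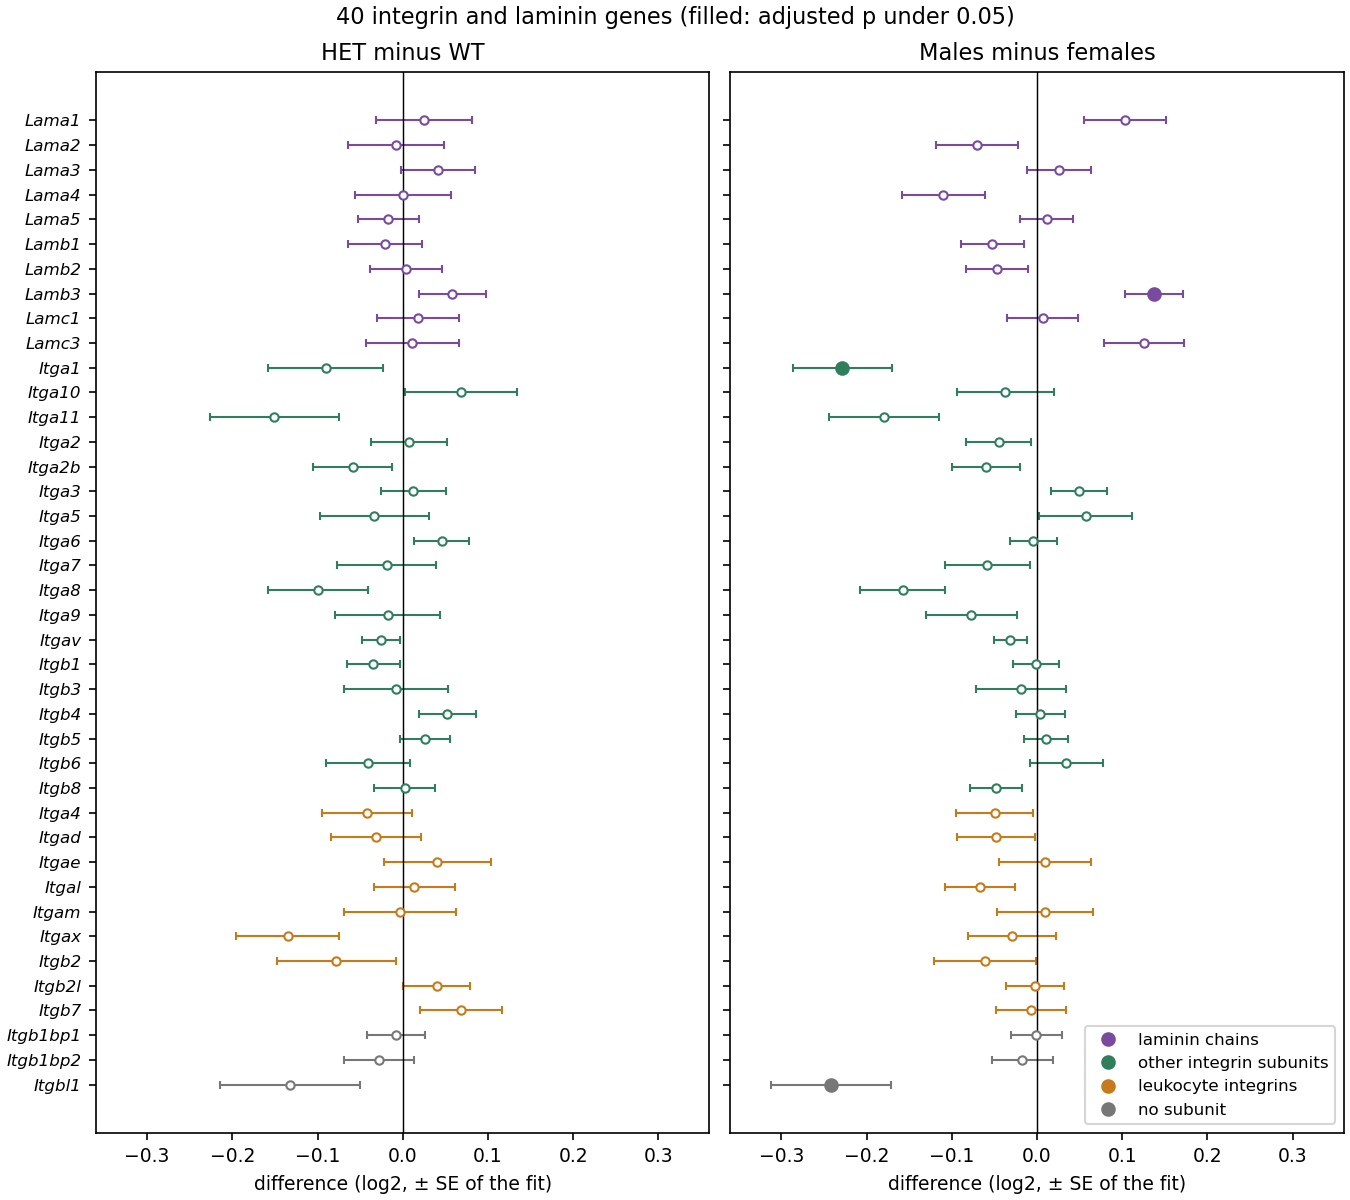
Difference in log2 expression (x axis) for each of the 40 genes (y axis), HET minus WT on the left and males minus females on the right. Points are limma estimates, bars are ± SE, colours give the kind of gene, and filled points passed an adjusted p of 0.05. No point is filled for genotype, and Lamb3 (0.14), Itga1 (-0.23) and Itgbl1 (-0.24) are filled for sex.

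The sexes differed in 3 of the 40 genes. Lamb3, the beta-3 chain of the laminin that anchors epidermis, was higher in males, while Itga1, the alpha-1 subunit of a collagen receptor of mesenchymal cells, and Itgbl1 were lower. By limma 680 of all genes were called (3.62%) and 3 of 40 members (7.50%), 1 higher and 2 lower. At an unadjusted p under 0.05 there were 8 members, and 3077 of all genes (16.4%). The members' median was -0.02 (male minus female, log2) against -0.01 for all genes, and 13 of 40 lay above 0 (44.9% of all genes).

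Lamb3 had its lowest, median and highest level at 6.35, 6.94 and 7.40 in females and at 6.57, 7.08 and 7.58 in males. The ranges of the sexes overlapped over most of their length. The means were 6.93 ± 0.19 (SD, n = 70) and 7.05 ± 0.22 (SD, n = 81), a difference of 0.14 ± 0.03 (SE) or 1.1-fold (limma adjusted p = 0.0066), with 0.10, 0.21 and 0.11 on plates 1, 2 and 3. The other chain of the same laminin on the array, Lama3, differed by 0.03 and was not called. Itga1 ran over 4.27, 5.19 and 5.74 in females and over 4.02, 4.98 and 5.75 in males. Its means were 5.13 ± 0.31 (SD, n = 70) and 4.92 ± 0.41 (SD, n = 81), a difference of -0.23 ± 0.06 (SE) or 1.17-fold (limma adjusted p = 0.0085), and within the plates it was -0.10, -0.27 and -0.28. The males reached lower than any female, while the upper ends of both sexes coincided. Itgbl1 ran over 6.0, 7.10 and 8.31 in females and over 5.67, 6.93 and 7.90 in males. With means of 7.12 ± 0.43 (SD, n = 70) and 6.90 ± 0.45 (SD, n = 81), it differed by -0.24 ± 0.07 (SE, 1.18-fold, limma adjusted p = 0.030), and by -0.10, -0.22 and -0.39 within the plates.

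**Figure D2:**
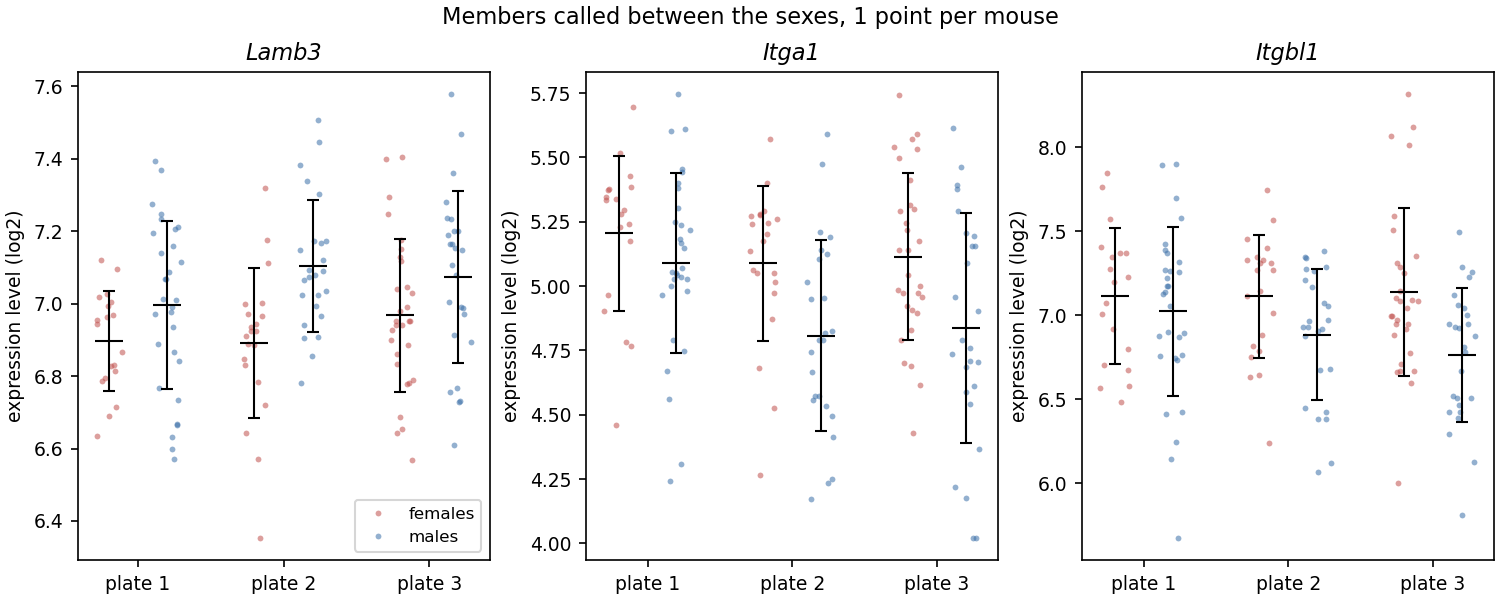
Expression level (log2, y axis) of Lamb3, Itga1 and Itgbl1 in each mouse, females and males side by side on plates 1, 2 and 3 (x axis). Each point is a mouse, and black marks give the mean ± SD. The male mean of Lamb3 lies above the female mean on every plate, and the male means of Itga1 and Itgbl1 lie below, with wide overlap.

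Of the 40 members, 26 have an entry in the RefSeq promoter table (29 promoters, GRCm38.p6). The 250 bases before a start of each gene called between the sexes are shown because these are the members whose level moved with a label. They are Lamb3 (chr1:193301744-193301993, plus strand), Itga1 (chr13:115101965-115102214, minus strand) and Itgbl1 (chr14:123659890-123660139, plus strand), each written 5′ to 3′ along its gene, with a motif match in capitals.
Lamb3: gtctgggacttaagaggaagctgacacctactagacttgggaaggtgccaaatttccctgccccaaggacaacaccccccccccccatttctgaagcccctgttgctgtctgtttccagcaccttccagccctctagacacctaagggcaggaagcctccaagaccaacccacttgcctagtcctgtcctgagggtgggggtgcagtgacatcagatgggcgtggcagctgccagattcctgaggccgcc
Itga1: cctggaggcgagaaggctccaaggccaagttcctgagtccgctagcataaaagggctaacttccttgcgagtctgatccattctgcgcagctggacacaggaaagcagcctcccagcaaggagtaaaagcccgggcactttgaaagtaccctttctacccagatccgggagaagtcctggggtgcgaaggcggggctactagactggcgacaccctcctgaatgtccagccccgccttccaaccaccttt
Itgbl1: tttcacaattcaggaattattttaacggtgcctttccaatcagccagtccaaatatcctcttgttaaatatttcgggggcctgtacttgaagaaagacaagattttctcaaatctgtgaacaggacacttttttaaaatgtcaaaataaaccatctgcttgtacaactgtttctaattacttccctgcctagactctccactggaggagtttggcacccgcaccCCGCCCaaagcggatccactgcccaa
Searched on both strands were the AP-1 site TGANTCA, the androgen receptor motif AGAACA, the oestrogen receptor motif AGGTCA, the TATA box TATAAA and the GC box GGGCGG. The 1 match in these stretches was a GC box on the minus strand, written CCGCCC here, 26 bases before the start of Itgbl1. Another start listed for Lamb3, not shown, had no match in its 250 bases. Of all 32851 promoters listed, 6.75% held the AP-1 letters, 16.1% the androgen receptor motif, 14% the oestrogen receptor motif, 12.4% the TATA box and 32.7% the GC box. Of the 29 member promoters 1, 5, 1, 0 and 10 held them. A match is a string of letters and not a site in use, and a missing match says only that these letters are not in this window.

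The next members by p did not pass: Itga8 (-0.16 ± 0.05, SE, limma adjusted p = 0.053) and Itga11 (-0.18 ± 0.06, SE, limma adjusted p = 0.10). Itga8 ran over 4.40, 5.10 and 5.58 in females and over 4.20, 4.90 and 5.82 in males, and Itga11 over 4.17, 5.38 and 6.47 and over 4.29, 5.16 and 5.99. Both sexes spanned much the same range in each. Among the laminin chains 6 of 10 were above 0, from -0.11 (Lama4) to 0.14 (Lamb3), and 2 of 9 leukocyte integrins were, from -0.07 (Itgal) to 0.01 (Itgam). With each array centred on its median, quantile normalized, or without covariates, Itgbl1 was no longer called (limma adjusted p = 0.053, 0.051 and 0.053). Itga8 was called with the 2 outlier arrays included (adjusted p = 0.033) and among genes above the lower quartile (adjusted p = 0.044), and in WT mice alone Itga1 was not (limma adjusted p = 0.061). No member was called on a single plate, where 0.276%, 0.383% and 0.611% of all genes were (plates 1, 2 and 3), and in the 37 HET mice alone Itgbl1 had the opposite sign (0.03).

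Some markers of skin cell types also moved with sex, for which 3.62% of all genes were called. Krt14 of basal keratinocytes was 0.07 higher in males and Krt1 of suprabasal keratinocytes 0.11 higher. Of 6 fibroblast markers Col1a1, Col1a2 and Col3a1 were higher (0.24, 0.20 and 0.26) and Lum lower (-0.28). Of 5 smooth muscle and pericyte markers Tagln was lower (-0.32) and all 5 were below 0, with a median of -0.22. The hair keratin Krt25 was lower (-0.36), and all 5 hair markers were below 0. No marker of the other 9 lists was called for sex. Among these, all 6 endothelial and all 6 skeletal muscle markers were also below 0 (medians of -0.06 and -0.18). All 3 platelet and megakaryocyte markers were above 0 (median 0.04). The mean standardised level of the basal keratinocyte markers ran from -1.75 to 1.17 in females and from -1.26 to 2.46 in males, a difference of 0.22 ± 0.11 (SE). For fibroblast, endothelial, leukocyte and skeletal muscle markers the difference was 0.15 ± 0.14, -0.18 ± 0.14, -0.17 ± 0.13 and -0.16 ± 0.15 (SE). With the basal keratinocyte, fibroblast, endothelial, leukocyte and skeletal muscle scores as covariates, an alternative chosen after seeing the data, 5 members and 889 of all genes (4.73%) were called. Lamb3 was then 0.10 (limma adjusted p = 0.0020), Itga1 -0.19 (adjusted p = 0.0095) and Itgbl1 -0.29 (adjusted p = 7.5e-07), joined by Itga11 (-0.22) and Lama4 (-0.11), both lower in males. The part of smooth muscle and of hair in these results was not tested.

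Partners of integrins and laminins outside the 40 genes went both ways between the sexes, where 3.62% of all genes were called. Krt14, Col1a1 and Col1a2 are in these lists and also among the cell type markers above. Of 6 hemidesmosome genes 1 was higher in males (Krt14) and 1 lower (Cd151, a tetraspanin bound to laminin-binding integrins, -0.09). Of 14 measured basement membrane genes Fras1, an epidermal adhesion protein, was higher (0.19) and Npnt, which encodes the Itga8 ligand nephronectin, lower (-0.14). Of 3 laminin receptors that are no integrins Rpsa, which also encodes a ribosomal protein, was higher (0.10). Among 16 adhesion adaptors, which tie integrins to actin, Vcl (vinculin, -0.10) and Actn1 (alpha-actinin, -0.10) were lower and none higher. Among 12 other integrin ligands the collagen genes Col1a1 and Col1a2 were higher and the fibronectin gene Fn1 lower (-0.29). No gene of these 5 lists or of 14 cell type marker lists was called for genotype, plate or the interaction of genotype with sex.

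Whether the genotype difference depends on sex was tested with an interaction term. By limma 0 of 18810 genes (0%) and 0 of 40 members passed, with 895 genes and 2 members at an unadjusted p under 0.05. Those members were Itgbl1, whose HET minus WT difference was higher in males than in females by 0.43 ± 0.16 (SE), and Itgb2, the beta-2 subunit of leukocyte integrins (0.27 ± 0.14, SE), each with a limma adjusted p of 1.00. In limma fits of females alone, 0 members and 10 genes (0.0532%) were called for genotype, with 6 members and 1159 genes (6.16%) at an unadjusted p under 0.05. In males alone it was 0 members and 0 genes (0%), with 0 members and 962 genes (5.11%) at an unadjusted p under 0.05.

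Few genes were called between plates. By limma 4 of 18810 genes (0.0213%) and 0 of 40 members passed. At an unadjusted p under 0.05 there were 152 genes (0.808%), fewer than the 5% that such a threshold gives by chance, and 1 member, Itga1. No source used here says whether the deposited values had been adjusted for plate. Itga1 had means of 5.14, 4.94 and 4.98 on plates 1, 2 and 3 with SDs of 0.33, 0.37 and 0.41, so its plates overlapped widely.

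The title of the series speaks of a network, and the last question was which of these genes vary together after a linear fit of plate, sex and genotype is taken out. Known partner pairs were subunits of 1 dimer, chains of 1 trimer, or a laminin chain and a receptor subunit, and 47 had both genes measured. Pearson's r across the 81 males and 70 females was called positive in 30 of the 47 pairs and negative in 0 (two-sided permutation test, Benjamini-Hochberg over 47 pairs). Their median r was 0.32, against 0.03 over the 733 other pairs of members. An r of at least 0.5 was reached by 12 of 47 partner pairs (25.5%) and by 30 of 733 others (4.09%), compared with 0.146% of all 176898645 pairs of genes on the array. By kind, 9 of 9 laminin and receptor pairs were called (median 0.50), 10 of 14 pairs of laminin chains (median 0.44) and 11 of 24 integrin dimers (median 0.14). Partner pairs share genes, so they are not independent of each other.

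The highest pairs fall into an epidermal and a dermal set. The named pairs from here to the hemidesmosome integrin had a permutation p of 1e-05 for r and for Spearman's rho, the smallest these permutations can give (adjusted p = 2.1e-05). Between Lama3 and Lamb3, chains of an epidermal laminin, r was 0.66 (rho 0.67). It was 0.74, 0.58 and 0.68 on plates 1, 2 and 3 and 0.64 with the 2 mice most distant from the Lama3 median left out. Itgb4, the beta-4 subunit, had r = 0.68 with Lamb3 (rho 0.65) and r = 0.66 with Lama3 (rho 0.67). On single plates these ran from 0.61 to 0.77 and from 0.54 to 0.79, and without the 2 farthest mice they were 0.66 and 0.63. For Itga6 and Itgb4, the subunits of the hemidesmosome integrin, r was 0.52 (rho 0.47), with 0.56, 0.46 and 0.55 on the plates and 0.48 without 2 mice. Other pairs around these subunits were Itga6 with Lama3 (0.55) and Lamb3 (0.50).

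In the dermal set the highest r was that of Lamb2 and Lamc1, the beta-2 and gamma-1 chains, at 0.74 (rho 0.74, permutation adjusted p = 2.1e-05 here and for the pairs that follow). Lama4, the alpha chain of vascular laminin, had r = 0.73 with Lamb2 (rho 0.73) and 0.72 with Lamc1 (rho 0.69). Lama2, the alpha chain best known from muscle and nerve, had r = 0.71 with Lamc1 (rho 0.70) and 0.65 with Lamb2 (rho 0.63). Without the 2 farthest mice these 5 values were 0.73, 0.72, 0.72, 0.69 and 0.64, and the lowest on any plate was 0.55, for Lama2 with Lamb2 on plate 3. All 8 pairs named so far as highest were positive on each plate.

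**Figure D3:**
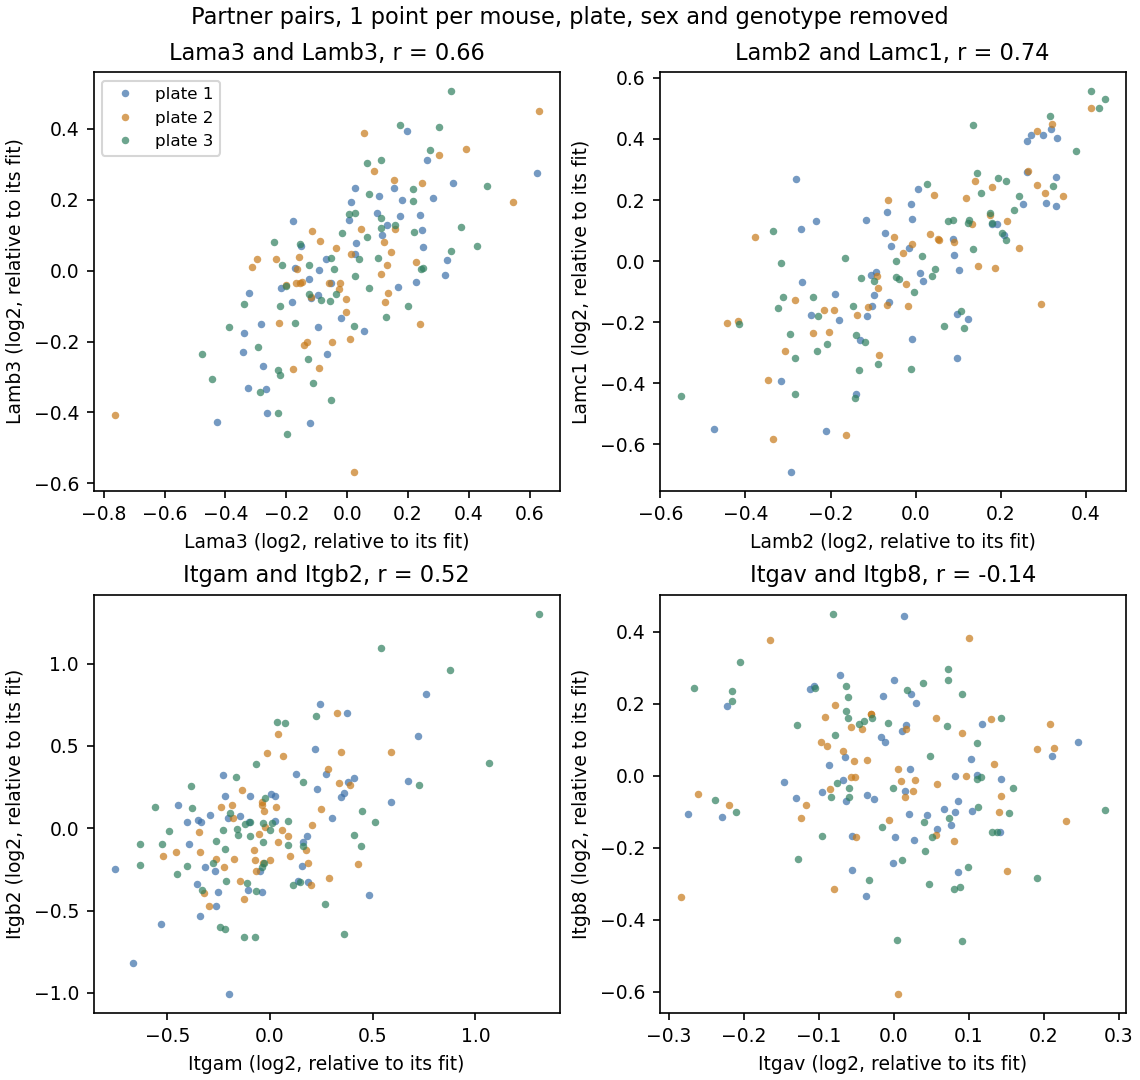
Levels of the genes of 4 partner pairs in each mouse (log2, relative to the fit of plate, sex and genotype), 1 point per mouse, coloured by plate. Lama3 with Lamb3 (r = 0.66) and Lamb2 with Lamc1 (r = 0.74) rise together on all 3 plates, Itgam with Itgb2 (r = 0.52) does so with a few mice far out, and Itgav with Itgb8 (r = -0.14) does not.

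The lowest pairs were Itgav with its partners Itgb8 (-0.14), Itgb6 (-0.14) and Itgb3 (-0.14), receptors of vitronectin or of latent TGF-beta, and Lama1 with Lamb1 (-0.14). None was called, with permutation adjusted p-values of 0.12, 0.13, 0.13 and 0.13, and rho was -0.17, -0.16, -0.13 and -0.15. For Itgav with Itgb8 r was -0.06, 0.08 and -0.35 on plates 1, 2 and 3 and -0.19 without the 2 farthest mice, where it passed (adjusted p = 0.027). For the other 3 pairs r without 2 mice was -0.11, -0.11 and -0.13. Of the partners of Itgav, Itgb5 alone was called positive (r = 0.20, rho 0.21, permutation adjusted p = 0.024 and 0.015).

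Itgb1, the beta subunit with the most partners, was called positive with 7 of its 12 alpha subunits. The highest were Itga5, the fibronectin receptor subunit (r = 0.56), Itga9, a tenascin-C receptor subunit (0.46), and Itga1 (0.42). With the epidermal subunits Itga3 and Itga6 r was -0.03 and 0.09, neither called, though both were called with 5 marker scores removed (0.23 and 0.25). Among leukocyte integrins Itgam and Itgb2 had r = 0.52 (rho 0.43) and Itgal and Itgb2 r = 0.23 (rho 0.21), both called (permutation adjusted p = 2.1e-05 and 0.0090 for r). Itgb2 with Itgax (0.07) and Itgad (0.10), and Itgb7 with Itgae (0.10) and Itga4 (0.14), were not called. Of the genes in these leukocyte pairs, Itgax, Itgad, Itgae, Itgb7 and Itgal had means under the array median. The part of low signal was not tested. Lama5 of epidermal and vascular basement membranes was called with Itga3 (0.50), Itga6 (0.26) and Lamb1 (0.28). With Lamb2 and Lamc1 its r was 0.02 and -0.04, and the plates went both ways for each. On plates 1, 2 and 3 r was -0.23, -0.06 and 0.31 with Lamb2 and -0.31, -0.07 and 0.30 with Lamc1.

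Beyond the partner pairs, the highest r of any 2 members was that of Itga5 and Lamc1 (0.75) and the lowest that of Itgbl1 and Lamb3 (-0.43). Itga9 had r from 0.67 to 0.70 with Lama2, Lama4, Lamb2 and Lamc1. Itgbl1 had 0.62, 0.62 and 0.65 with Lama2, Lama4 and Lamc1. These are values of pairs picked from 780 for their size and carry no test. Itgb4 had a higher r with Itga3 (0.60), no listed partner, than with its partner Itga6 (0.52). Likewise Itga5 had a higher r with Itgb3 (0.59), no listed partner, than with its partner Itgb1 (0.56). The differences between these values were not tested.

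**Figure D4:**
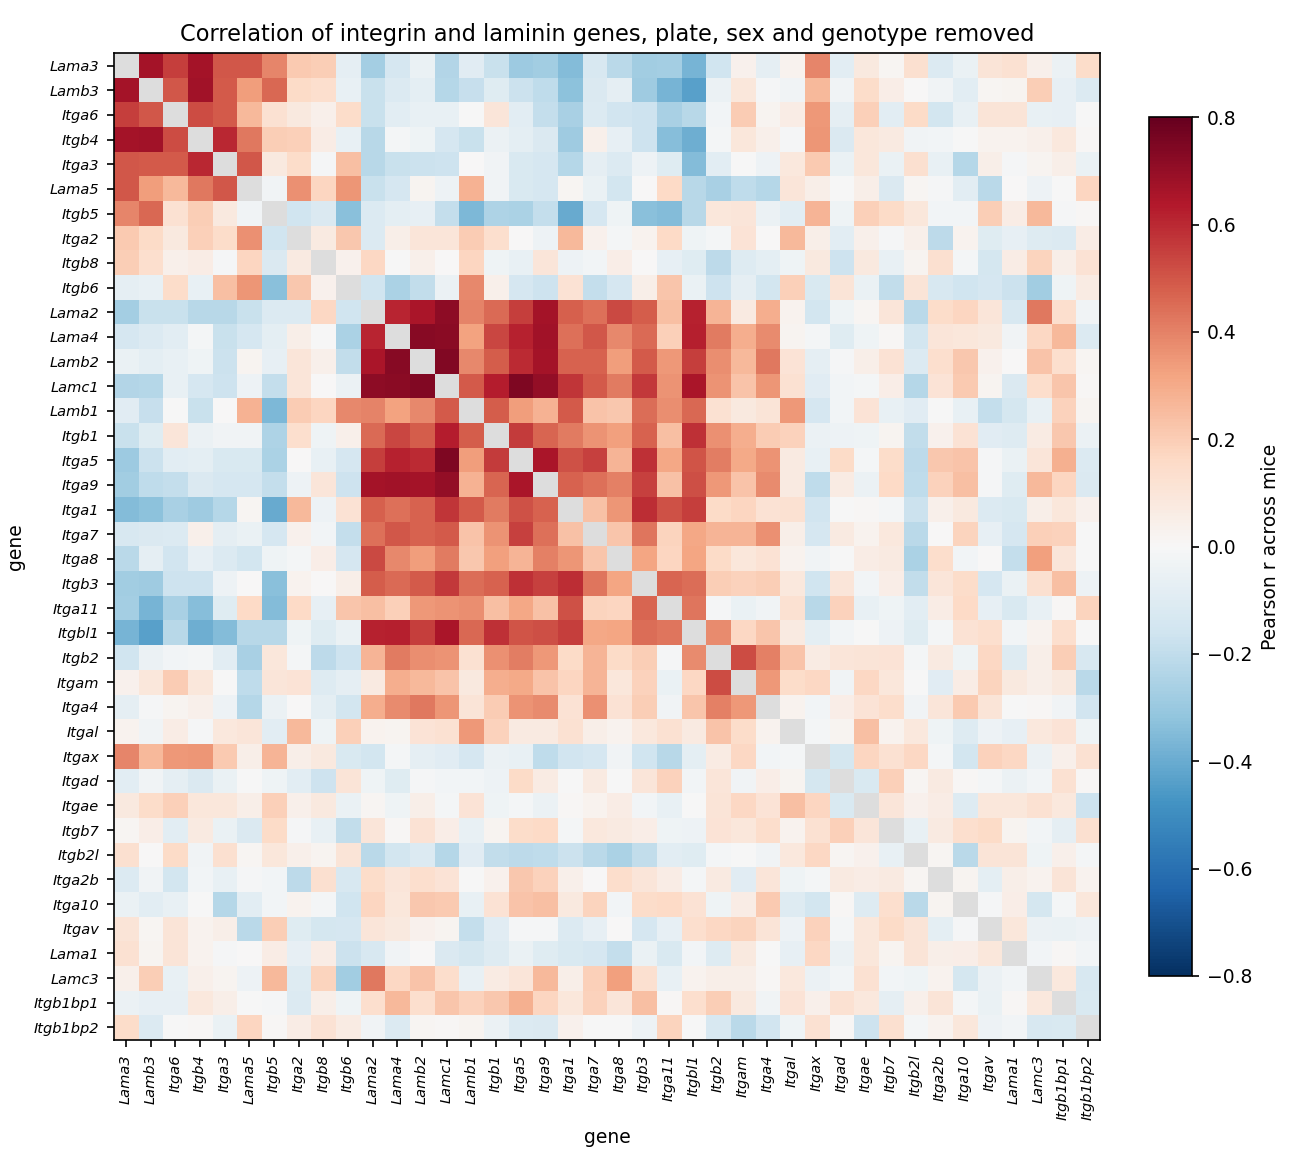
Pearson's r between each 2 of the 40 genes (both axes) across mice, with plate, sex and genotype removed. Red is positive, blue negative, and the diagonal is grey. The order of the genes was set by hand, so the blocks depend on that placement. The block at the upper left holds Lama3, Lamb3, Itga6, Itgb4, Itga3 and Lama5. The large block holds Lama2, Lama4, Lamb2, Lamc1 and Itgb1 with some of its partners, among them Itga5, Itga9 and Itga1. The lowest r is -0.43 (Itgbl1 with Lamb3).

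The members were also set against the mean standardised level of markers of 13 cell types, none of them a member (520 correlations, adjusted together). The basal keratinocyte markers were Krt5, Krt14, Krt15, Trp63 and Col17a1. Of these, Krt5, Krt14 and Col17a1 also belong to the hemidesmosome list, so this score is not independent of hemidesmosome genes. With the basal keratinocyte score 6 of 40 members had r of at least 0.4 (1.36% of all genes): Lamb3 (0.75), Lama3 (0.70), Itgb4 (0.64), Itga6 (0.57), Itga3 (0.52) and Lama5 (0.47). Each had a permutation p of 1e-05 (adjusted p = 4.6e-05), rho from 0.45 to 0.74, and r from 0.41 to 0.77 on single plates and from 0.45 to 0.74 without the 2 farthest mice. With the endothelial score it was 14 members (6.46% of all genes), led by Itga9 (0.76), Lamc1 (0.76), Lama4 (0.75), Itga5 (0.74) and Lamb2 (0.74), with rho from 0.71 to 0.77. With the fibroblast score it was 12 (5.4% of all genes), led by Itgbl1 (0.80; rho 0.74, 0.77 without 2 mice). With the smooth muscle and pericyte score it was 13 (4.99% of all genes), led by Lamc1 (0.73, rho 0.71), and with the macrophage and dendritic cell score 11 (4.67% of all genes), led by Itgb2 (0.71, rho 0.65). The endothelial score itself had r = 0.71 with the fibroblast and 0.77 with the smooth muscle score, so these counts are not independent.

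Leukocyte integrins split in this respect. With the leukocyte score 5 members had r of at least 0.4 (3.37% of all genes), among them Itgb2 (0.73, rho 0.63) and Itgam (0.66, rho 0.59), while Itgax (0.21) and Itgal (0.21) had lower values (permutation adjusted p = 0.022 and 0.026). Itgae, the CD103 subunit of T cells that reside in epidermis, had 0.42 with the T lymphocyte score (rho 0.41). With the score of hair matrix and shaft markers 4 members had r of at least 0.4 (3.15% of all genes), led by Itga11 (0.67, rho 0.68). Itga10, a collagen receptor subunit of chondrocytes, had 0.54 with the cartilage and bone score (rho 0.44), with 0.73, 0.40 and 0.32 on plates 1, 2 and 3. Itga1 had its highest r with smooth muscle and pericyte markers (0.61, rho 0.60). Each r of 0.42 or more named here had an adjusted p of 4.6e-05.

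With the same 5 marker scores (basal keratinocyte, fibroblast, endothelial, leukocyte and skeletal muscle) removed from both genes, 23 partner pairs passed, 17 of them among the 30. Lama3 with Lamb3 was then 0.31, Itgb4 with Lama3 0.39, Itgb4 with Lamb3 0.37, Itga6 with Itgb4 0.26 and Lamb2 with Lamc1 0.33, all called. The 13 pairs no longer called included Itgam with Itgb2 and Itga6 with Lamb3, each at 0.10 (permutation adjusted p = 0.30). Positive calls were 11 of 14 for laminin chains, 5 of 9 for laminins and receptors and 5 of 24 for integrin dimers. Lama5 with Lamb2 and with Lamc1, which were not among the 30, were called at 0.32 and 0.31 (permutation adjusted p = 0.00047 for each), and Lama5 with Lamb1, which was, stood at 0.45 (adjusted p = 9.4e-05). Itga3 and Itga6 were called with Itgb1 at 0.23 and 0.25 (adjusted p = 0.011 and 0.0067). Itgav had called negative values with Itgb1 (-0.26) and Itgb3 (-0.23).

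The 3 genes outside the members that varied most like each named member are given with Pearson's r over all mice of both sexes. For Lamb3 they were Col17a1, the hemidesmosome collagen (0.74), Krt14 (0.70) and Krt5 (0.59), for Itgb4 Col17a1 (0.75), Als2cl (0.71) and Lrp4 (0.57), and for Lama3 Col17a1 (0.77), Lrp4 (0.73) and Als2cl (0.72). For Itga6 they were Krt5 (0.58), Col17a1 (0.57) and Krt14 (0.55). For Lamc1 they were Hspg2, which encodes the basement membrane proteoglycan perlecan (0.84), Fermt2 (0.79) and Dennd5a (0.79), and for Lamb2 Hspg2 (0.76), Zeb1 (0.73) and Ebf1 (0.73). Lama4 was most like Zeb1 (0.78), Pecam1 of endothelium (0.76) and Fbln2 (0.76), and Lama2 most like Cped1 (0.81), Nid1 (0.78) and Zeb2 (0.78). For Itga1 they were Pxdn, the peroxidase that crosslinks collagen IV (0.74), Cald1 (0.71) and Fads1 (0.68), and for Itgbl1 Lhfp (0.80), Col6a1 (0.79) and Bgn (0.79).

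Lama1, the alpha-1 chain found mainly in embryonic basement membranes, is described last. Its levels were low, from 3.23 to 4.59 with a mean of 3.82 ± 0.30 (SD), and its r with each marker score lay between -0.07 and 0.08. The 20 genes most like it all lie on its own chromosome 17, which holds 4.71% of the genes measured. The highest r was 0.46, with Arhgap28, the next measured gene, followed by Fer (0.45, 18 places before), H2-Ea (0.44, 374 places before) and Trim10 (0.44, 271 places before). Of the genes within 50 places of Lama1 20% had r of at least 0.25 in either direction. The share was 18% for the next 50 places on each side, 7.41% from there to 200 places, 7.0% from there to 400 and 2.12% beyond, and 0.357% on other chromosomes. No other member had more than 6 of its 20 most similar genes on its own chromosome, the number for Itga3 (chromosome 11, with 7.81% of genes) and Itgb1bp1 (chromosome 12, with 3.18%). Some other members also had a higher share of genes past an r of 0.25 in either direction nearby than elsewhere. Within 100 places on each side, examples were 38 of 200 genes for Lama1, 17 of 163 for Itgb1bp1 and 24 of 200 for Itga10. On other chromosomes the shares were 0.357%, 0.741% and 2.54%. For Itga2 and Itga8 the counts were 23 of 121 and 31 of 147 genes nearby, against 5.62% and 7.89% on other chromosomes. Itga3, Itgbl1, Itgb6 and Lama4 were further examples, with 15.5%, 25.7%, 18.5% and 22% nearby. Their shares on other chromosomes were 9.24%, 17.7%, 13.1% and 16.1%. Other members had no higher share nearby, such as Itgad and Itgal (0% each, against 0.309% and 0.53%). These shares are descriptions and carry no test.

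**Figure D5:**
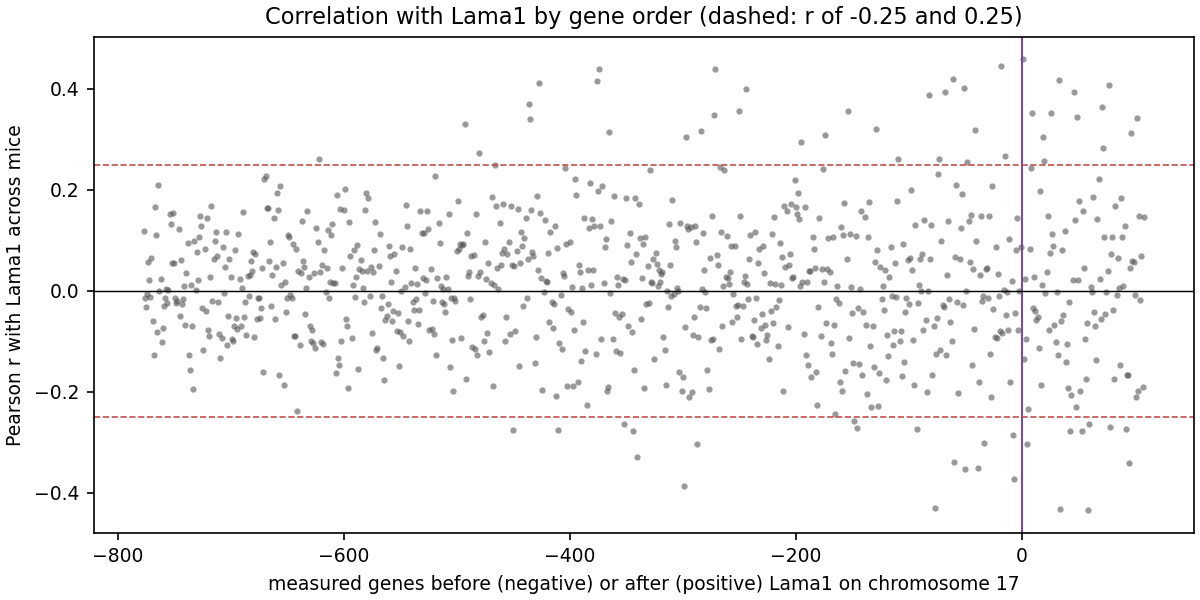
Pearson's r with Lama1 across mice (y axis) for the other measured genes of chromosome 17, placed by their order before or after Lama1 (x axis, number of genes). Dashed lines mark r of -0.25 and 0.25. Points past the lines, in both directions, are denser near Lama1 (20% within 50 places) than far from it (2.12% beyond 400).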

How the data were processed

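Total RNA of each mouse was labelled with biotin and hybridised to 1 array, per the labels' protocols. The deposited log2 values were summarised per probe set with RMA by the authors, per the submitters' processing notes. The sources used here give neither its version nor the array's build, nor whether the values were adjusted further. Of 35556 rows 171 were empty. Probe sets had 1 symbol (21201), several (1881) or none (12303, unnamed here), and 21168 of the first matched a RefSeq gene table (GRCm38.p6) used for names and order, while 33 did not. The probe set with the highest mean stood for a gene (1385 genes have several). The most similar arrays had r = 0.986, and none was treated as a repeat. Genotype labels were not checked against the Hras transcript, which is not reported here.

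Group differences come from limma 3.58.1 (R 4.3.3; genotype, sex and plate in 1 model, variance trend, call at adjusted p under 0.05). Correlations were computed in Python 3.11.15 (numpy 2.4.6, scipy 1.17.1, pandas 2.3.3) on residuals, with 100000 permutations, and figures with matplotlib 3.10.9. For correlations, marker scores are means of standardised residuals, and as limma covariates or set against sex they are means of standardised deposited values, from lists with at least 3 measured markers, which left out Schwann cells (1 marker, not called in any comparison).

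Members, partner pairs and lists were chosen with earlier results of these data known. Members named are those called, or those with the 5 smallest p-values, those on chromosome 7, the 8 highest and 4 lowest pairs and the pairs of the epidermal laminin and hemidesmosome integrin. The 3 genes most like a member are given for members called or in the highest pairs. Other members and pairs were named for their role, or after their values were seen. On simulated arrays with 100 genes changed by 0.2 and 100 by 0.4 (log2, of 18810), the fit recovered 66 and 100 for genotype and 86 and 100 for sex. Alternatives were other scalings, probe set rules, filters, models and subsets of mice.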

Additional observations from a re-analysis of the deposited data

How the results depend on the processing

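The count of members called for genotype and for plate was 0 under each alternative run, where at most 0.147% and 0.0267% of all genes were called. Between the sexes 3 members were called by limma (3.62% of all genes). On plates 1, 2 and 3 alone it was 0 members (0.276%, 0.383% and 0.611% of all genes). There 2, 5 and 7 members had an unadjusted p under 0.05, as did 8.26%, 11.5% and 9.59% of all genes. In HET mice alone it was 0 members (0.138% of all genes), with 2 members and 6.1% of all genes at an unadjusted p under 0.05. With marker scores as covariates, chosen after seeing the data, it was 5 members (4.73% of all genes). The other alternatives gave 2 to 4 members, with 2.67% to 5.04% of all genes called. Itgbl1 reversed to 0.034 in HET mice alone. Called partner pairs ran from 23 to 32, against 30. For the named members, 203 values under alternatives kept their direction or stayed uncalled, 15 lost and 3 gained the call. Over all 47 partner pairs and 11 alternatives, 464 of 517 values kept their direction and call or stayed uncalled, 35 lost the call, 14 gained it and 4 reversed. With marker scores removed, 28 of 47 kept theirs. A block by replicate number was not fitted, since no numbers are shared in the labels. Subsets hold fewer mice, and low probe sets such as Lama1 are less well measured.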
